A study of Mus musculus with 16 samples.

Results

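The E2F transcription factors E2f1 to E2f8 and the pocket proteins Rbl1 and Rbl2 were examined in primary alveolar type II cells of C57BL/6 mouse lung. Type II cells secrete the surfactant that lines the air sacs. All 10 genes were taken by name from the array annotation. They carry 13 probes, out of 55681 probes and 34781 gene names in all. All 10 genes were among the 25401 genes tested, and every one of their probes was well above background on all 16 arrays. Before RNA was taken, the cells had spent 6 h or 24 h at 21% O2, called normoxia, or at 85% O2, called hyperoxia. Each of the 4 combinations was measured on 4 one-colour arrays, with no other treatment or genotype in the labels. The labels do not say whether the 4 samples of a group came from separate mice or cultures, so p-values measure the spread between these samples, which may be technical. At 24 h, by the brightest probe of each gene, 6 of the 10 were lower in hyperoxia than in normoxia: E2f8, E2f7, Rbl1, E2f1, E2f2 and E2f4. The second E2f7 probe did not pass the test. At 6 h none of the 10 passed the test described below.

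E2F factors bind the promoters of genes needed for entry into S phase. E2f1, E2f2 and E2f3 are known as activators, held inactive by pocket proteins until cyclin-dependent kinases phosphorylate the pocket protein. E2f4 and E2f5 act mainly as repressors together with Rbl1 or Rbl2, which also hold them in a complex with the MuvB proteins in resting cells. E2f6 represses without a pocket protein, in complexes with Polycomb proteins. E2f7 and E2f8 are atypical factors that bind DNA without a DP partner and repress the same class of target late in S phase. Several members are themselves known E2F targets. Type II cells divide rarely in the healthy lung and act as the progenitors that renew the alveolar lining after injury.

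Promoter sequences are shown here because some members carry the E2F binding motif themselves. RefSeq start-site windows of GRCm38.p6 were at hand for 8 of the 10 genes, and for 6 of them (E2f2, E2f3, E2f6, E2f7, Rbl1 and Rbl2) a window began at the outer start of the gene or within 100 bases of it. Both strands were searched for the E2F letters TTTCGCGC, TTTGGCGC, TTTCCCGC and TTTGCCGC, and no match overlapped a match of the other motifs searched. A match was present in 4 of these 6 windows of 300 bases, against 2.26% of all 32851 RefSeq windows of that length. Those 32851 were not limited to outer gene starts. The match began at position -18 from the start in Rbl1, at -198 in E2f7, at -11 in E2f3 and at 40, inside the transcript, in E2f2. E2f6 and Rbl2 had none, nor did the E2f1 and E2f8 windows, whose starts lay 466 and 477 bases inside the gene. The 250 bases before the start are printed 5′ to 3′ on the strand of the gene, with the E2F match in capitals, for Rbl1 (chr2:157204535-157204784, minus strand), E2f7 (chr10:110745189-110745438, plus strand), E2f3 (chr13:29986064-29986313, minus strand) and Rbl2 (chr8:91069807-91070056, plus strand), the last as a window without a match.
Rbl1: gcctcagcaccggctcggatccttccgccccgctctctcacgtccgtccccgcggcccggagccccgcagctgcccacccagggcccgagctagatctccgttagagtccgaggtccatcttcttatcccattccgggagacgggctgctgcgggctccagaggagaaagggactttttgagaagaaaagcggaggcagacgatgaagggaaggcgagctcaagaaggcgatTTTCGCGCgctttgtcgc
E2f7: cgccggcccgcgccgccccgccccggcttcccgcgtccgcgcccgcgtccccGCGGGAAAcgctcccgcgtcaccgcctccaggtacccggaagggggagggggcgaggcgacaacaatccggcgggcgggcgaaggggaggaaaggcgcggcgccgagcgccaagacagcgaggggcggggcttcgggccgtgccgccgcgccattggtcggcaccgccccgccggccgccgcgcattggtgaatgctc
E2f3: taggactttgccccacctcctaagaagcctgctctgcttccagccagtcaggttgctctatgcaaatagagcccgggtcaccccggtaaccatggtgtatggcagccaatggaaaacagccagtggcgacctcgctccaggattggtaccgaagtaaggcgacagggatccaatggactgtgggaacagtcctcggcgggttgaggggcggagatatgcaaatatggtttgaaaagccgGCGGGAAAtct
Rbl2: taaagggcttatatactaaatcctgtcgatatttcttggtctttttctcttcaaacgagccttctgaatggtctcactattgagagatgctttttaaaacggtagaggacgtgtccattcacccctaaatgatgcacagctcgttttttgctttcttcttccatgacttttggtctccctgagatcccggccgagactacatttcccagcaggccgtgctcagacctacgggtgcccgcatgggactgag
Other motifs of cell cycle promoters are the CHR, TTTGAA, present in 17.9% of all windows, and CCAAT, present in 37.4%. Among the 6 windows TTTGAA was present in E2f3 and Rbl2, and CCAAT in E2f2, E2f3 and E2f7. In the measurements below, by the brightest probe of each gene, Rbl1, E2f7 and E2f2 fell in hyperoxia at 24 h and E2f3 did not pass. By their other probes E2f3 passed (log2 fold change -0.24) and E2f7 did not (-0.10). Whether a match bears on the response was not tested. A match describes letters in a window and no binding was measured.

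**Figure D1:**
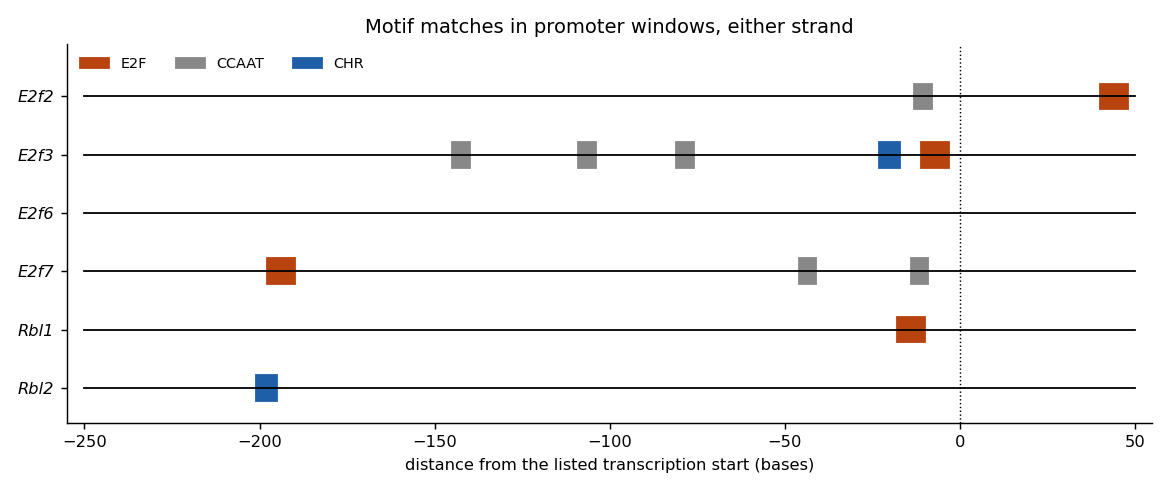
Positions of E2F, CHR and CCAAT motif matches on either strand, in bases from the listed transcription start, for the 6 members with a window at the outer gene start; boxes are drawn to the length of the motif. E2F boxes are seen in E2f2, E2f3, E2f7 and Rbl1, and the E2f6 line holds no box of any kind.

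Levels are given as log2 signal relative to the 75th percentile of the same array, so 0 is the level of that percentile. Levels of different genes come from different probes and are not compared with each other. A mean is given with its SD over 4 arrays (n = 4), and a log2 fold change with its SE. A gene rose or fell where the adjusted p of limma, with Benjamini-Hochberg adjustment over 25401 genes, was under 0.05. Between 53.6% and 69.0% of all probes exceeded background clearly on an array. The 75th percentile itself ranged from 899 to 1021 intensity units at 6 h and from 556 to 801 at 24 h. Time and slide cannot be told apart, because each of the 2 slides held the arrays of 1 time. On both slides normoxia occupied 1 row and hyperoxia the other, so oxygen and slide row cannot be told apart either. Of 10 type II cell markers, 9 passed the background filter, and Slc34a2 was not above background in any group. Their summed level was 5.89 to 6.20 (normoxia) and 5.79 to 6.32 (hyperoxia) at 6 h, and 5.29 to 5.49 and 4.86 to 5.17 at 24 h, where 1 marker rose and 3 fell in hyperoxia. All 7 fibroblast and smooth muscle markers were above background, and at 24 h their summed level ranged from 10.6 to 10.8 in normoxia and from 10.5 to 10.6 in hyperoxia. None of the 7 was called in either hyperoxia comparison. Of other cell types, 1 of 5 macrophage markers rose in hyperoxia at 24 h, the summed level of the 5 ranging from -0.06 to 0.89 in normoxia and from 0.84 to 1.51 in hyperoxia. Also, 1 of 3 neutrophil and 1 of 3 club and ciliated cell markers rose and 1 of 4 endothelial markers fell. Of all genes 15.5% rose and 12.8% fell in hyperoxia at 24 h. Fewer cells of a type and less RNA per cell cannot be told apart in such bulk samples, and the part of cell composition in the results was not tested.

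The activator E2f1, which drives S-phase genes and can also drive cell death genes, held a steady level in 3 groups and was lower in the fourth. Its level was 1.29, 1.32, 1.21 and 1.32 on the normoxia arrays at 6 h and 1.41, 1.24, 1.10 and 1.32 on the hyperoxia arrays. At 24 h it was 1.41, 1.06, 1.23 and 1.48 in normoxia and 0.53, 0.25, 0.38 and 0.36 in hyperoxia. All 4 hyperoxia arrays at 24 h lay below every other array of the series. E2f1 was 1.88-fold lower in hyperoxia at 24 h (log2 fold change -0.91 ± 0.10, limma adjusted p = 5.4e-06). Its probe lies at chr2:154385798-154385857 of mm9, on the minus strand.

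E2f2, the second activator, fell both with time and with hyperoxia. At 6 h its level was -0.46, -0.36, -0.61 and -0.54 in normoxia and -0.26, -0.23, -0.24 and -0.20 in hyperoxia. The hyperoxia arrays all lay above the normoxia arrays, as was so for 2.31% of all genes, but the difference of 0.26 ± 0.12 did not pass the test (limma adjusted p = 0.675). At 24 h the level was -1.08, -1.44, -1.46 and -1.06 in normoxia and -1.66, -1.78, -2.15 and -2.13 in hyperoxia. These groups did not overlap, with hyperoxia the lower by 1.59-fold (log2 fold change -0.67 ± 0.12, limma adjusted p = 0.000693). In normoxia alone, E2f2 was 0.76 lower on the log2 scale at 24 h than at 6 h (log2 fold change -0.76 ± 0.12).

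E2f3, the third activator, was level across the groups by its brightest probe. Its means were 1.68 ± 0.10 and 1.56 ± 0.31 at 6 h and 1.65 ± 0.06 and 1.63 ± 0.03 at 24 h, in normoxia and hyperoxia respectively. At 24 h the log2 fold change was -0.01 (95% confidence interval -0.26 to 0.23, limma adjusted p = 0.947). The second E2f3 probe, whose mm9 alignment spans 3387 bases (chr13:30005369-30008755) and so crosses an intron, read -0.94, -1.34, -1.31 and -1.01 in normoxia and -1.41, -1.33, -1.39 and -1.44 in hyperoxia at 24 h. The groups overlapped only narrowly, and the fall of 0.24 on the log2 scale passed the test narrowly when this probe stood for the gene (limma adjusted p = 0.0435). The changes of the probes differed by 0.23, which an exact two-sided permutation test over the 8 arrays did not set apart (p = 0.229, 0.229 after Benjamini-Hochberg adjustment).

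Within the activators the 24 h changes were compared in pairs, as part of 9 comparisons between members of 1 role or probes of 1 gene that were added after the values were known. The change of E2f1 was 0.90 below that of E2f3, and that of E2f2 was 0.66 below it. Both differences had the smallest p that 4 against 4 arrays allow (exact two-sided permutation test, p = 0.0286, adjusted p = 0.0367 over the 9). The permutation treated the arrays as unpaired, although same-numbered arrays of the groups shared a slide column and correlated at 24 h. With 4 pairs a paired permutation cannot reach 0.05, so all 9 comparisons rest on treating the arrays as unpaired. The E2f2 difference was above 0.05 without hyperoxia 24 h replicate 3 or 4 (exact permutation p = 0.0571). E2f1 and E2f2 differed from each other by -0.24, with overlapping arrays (exact permutation p = 0.171, adjusted p = 0.193).

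**Figure D2:**
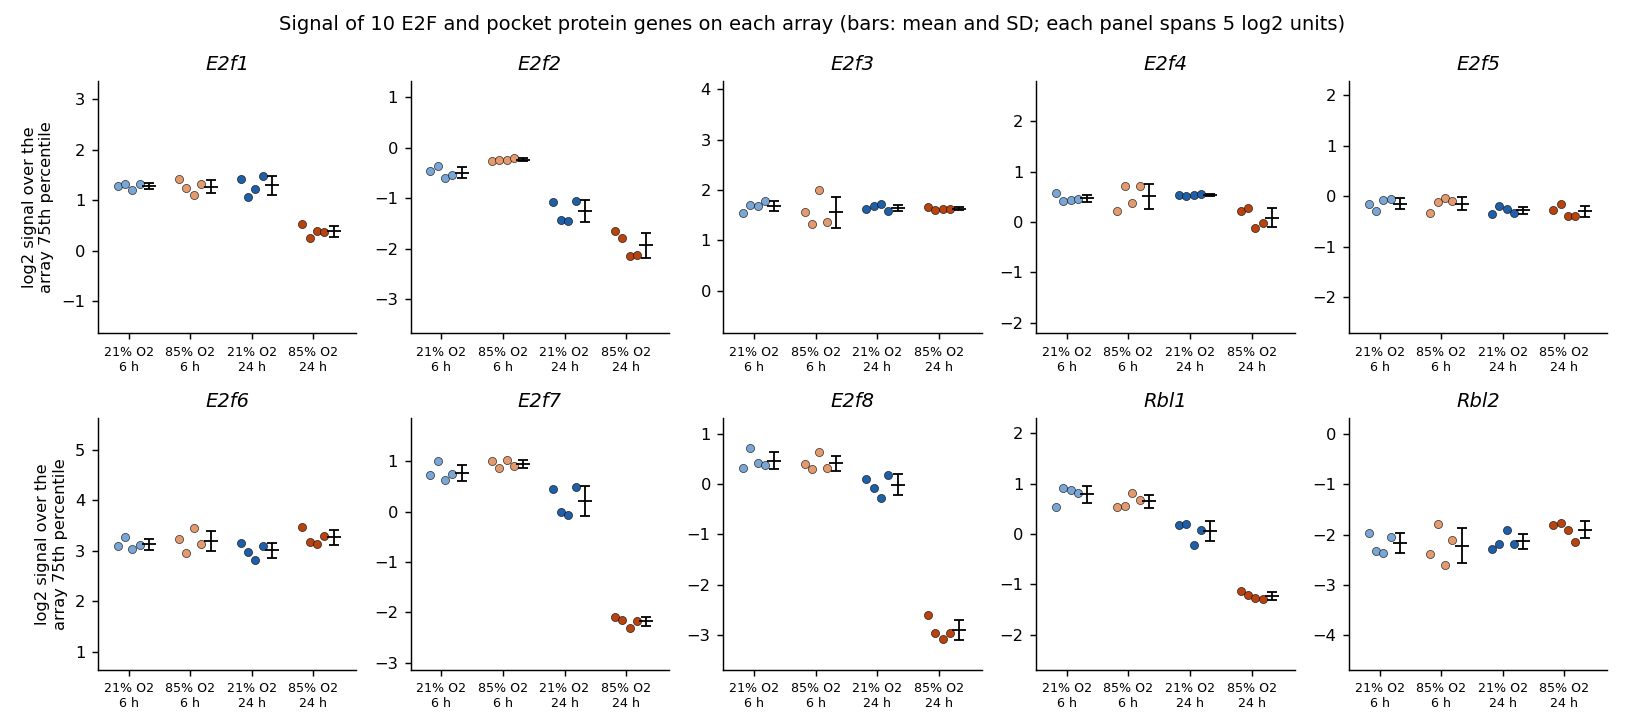
Log2 signal over the 75th percentile of the array (vertical axis) for each of the 10 genes on each of the 16 arrays (points), by oxygen level and time, with the group mean and SD beside the points; all panels span the same number of log2 units. The 24 h hyperoxia points of E2f1, E2f2, E2f4, E2f7, E2f8 and Rbl1 lie below all 24 h normoxia points, and those of E2f3, E2f5, E2f6 and Rbl2 overlap them.

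Of the repressors that work with pocket proteins, E2f4 fell in hyperoxia at 24 h and E2f5 did not pass the test. E2f4 read 0.54, 0.51, 0.54 and 0.55 on the normoxia arrays at 24 h and 0.21, 0.28, -0.12 and -0.02 on the hyperoxia arrays. The normoxia arrays were tightly grouped and all above the hyperoxia arrays. The fall was 1.36-fold (log2 fold change -0.45 ± 0.11, limma adjusted p = 0.00772). At 6 h the hyperoxia arrays were spread from 0.22 to 0.72 around the normoxia arrays, and the difference was 0.03. E2f5 means lay between -0.30 and -0.15 in all 4 groups, and its 24 h difference was -0.02 (95% confidence interval -0.19 to 0.15). The change of E2f4 was 0.43 below that of E2f5 (exact permutation p = 0.0286, adjusted p = 0.0367).

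E2f6, the repressor that joins Polycomb complexes, ranged over the arrays from 2.82 to 3.14 in normoxia and from 3.13 to 3.46 in hyperoxia at 24 h. Most hyperoxia arrays were the higher, with 1 of 4 inside the normoxia range. The difference was 0.26 ± 0.11 (95% confidence interval 0.03 to 0.49), and its limma adjusted p was 0.0904. With another background correction (normexp) it was 0.32 and passed (limma adjusted p = 0.0388).

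By the brightest probes, the atypical repressors E2f7 and E2f8 fell furthest of the 10 genes. E2f8 read 0.10, -0.07, -0.28 and 0.19 in normoxia at 24 h and -2.60, -2.96, -3.08 and -2.95 in hyperoxia. The gap between the groups was far wider than the spread within either. E2f8 was 7.36-fold lower (log2 fold change -2.88 ± 0.13, limma adjusted p = 1.71e-09). At 6 h its means were 0.46 ± 0.17 in normoxia and 0.41 ± 0.15 in hyperoxia, a difference of -0.05 (95% confidence interval -0.32 to 0.22).

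E2f7, by its brightest probe (chr10:110224331-110224390 of mm9, plus strand), read 0.45, -0.01, -0.08 and 0.48 in normoxia at 24 h and -2.09, -2.15, -2.31 and -2.17 in hyperoxia. Every normoxia array lay well above every hyperoxia array. The fall was 5.25-fold (log2 fold change -2.39 ± 0.12, limma adjusted p = 4.08e-09). At 6 h the arrays ran from 0.62 to 0.99 in normoxia and from 0.86 to 1.03 in hyperoxia, and overlapped.

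The second E2f7 probe did not show this fall. It lies upstream in the gene, at chr10:110219255-110219314 of mm9, and names the same RefSeq transcript. At 24 h it read -1.53, -1.56, -1.64 and -1.48 in normoxia and -1.70, -1.77, -1.62 and -1.53 in hyperoxia. The groups overlapped, and the difference was -0.10 ± 0.08 (limma adjusted p = 0.422 over all tested probes). The changes of the probes differed by 2.29 on the log2 scale (exact permutation p = 0.0286, adjusted p = 0.0367). The call of E2f7 as well as its size therefore rests on its brightest probe. Why the probes differ was not tested.

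The fall of E2f8 was 0.49 deeper than that of E2f7 by its brightest probe (exact permutation p = 0.0286, adjusted p = 0.0367). It shrank to 0.16 with normexp background correction (exact permutation p = 0.114), and was above 0.05 without normoxia 24 h replicate 2 or 3 (exact permutation p = 0.0571).

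**Figure D3:**
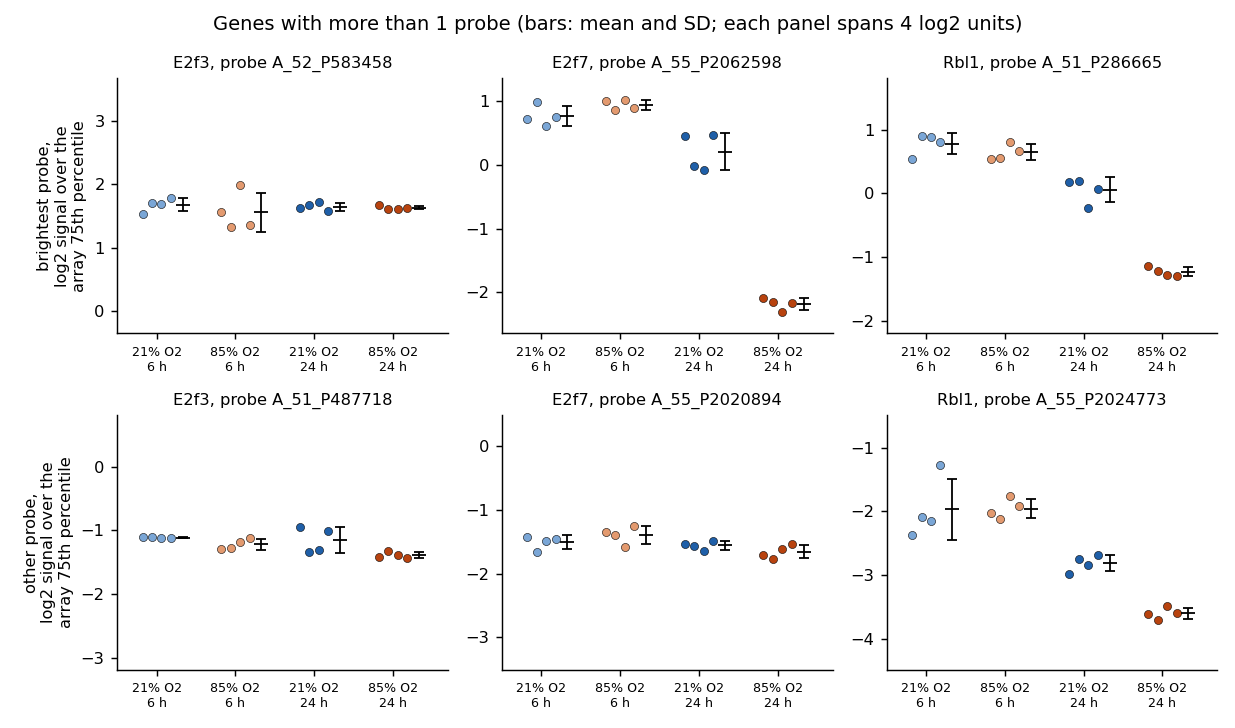
Log2 signal over the array 75th percentile on each array for the 3 genes with more than 1 probe, the brightest probe above and the other probe below, with group mean and SD beside the points. Both Rbl1 probes are lowest in hyperoxia at 24 h, while for E2f7 the upper panel drops to between -2.31 and -2.09 and the lower panel stays between -1.77 and -1.25 in all groups.

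Of the pocket proteins, Rbl1 fell in hyperoxia at 24 h and Rbl2 did not pass the test. Rbl1, which is made mainly in dividing cells, read 0.18, 0.19, -0.22 and 0.08 in normoxia at 24 h and -1.13, -1.22, -1.28 and -1.29 in hyperoxia. The hyperoxia arrays formed a narrow group below all others. Rbl1 was 2.44-fold lower (log2 fold change -1.29 ± 0.10, limma adjusted p = 4.27e-07). Its second probe, at chr2:157000761-157000820 of mm9 and named for another RefSeq transcript, read -2.98, -2.75, -2.85 and -2.69 in normoxia and -3.61, -3.71, -3.49 and -3.60 in hyperoxia. These groups also did not overlap, and the fall was 0.79 ± 0.18 on the log2 scale (log2 fold change -0.79, limma adjusted p = 0.00402). It was smaller than that of the first probe by 0.50 (exact permutation p = 0.0286, adjusted p = 0.0367), a test that was above 0.05 without any 1 of the 4 hyperoxia arrays (exact permutation p = 0.0571).

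Rbl2, the pocket protein that prevails in resting cells, read -2.28, -2.18, -1.92 and -2.18 in normoxia at 24 h and -1.80, -1.77, -1.91 and -2.15 in hyperoxia. The groups overlapped. The difference was 0.23 ± 0.16 (95% confidence interval -0.10 to 0.57, limma adjusted p = 0.303). The change of Rbl1 was 1.52 below that of Rbl2 (exact permutation p = 0.0286, adjusted p = 0.0367).

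In all, by the brightest probes, 0 of the 10 genes rose and 6 fell in hyperoxia at 24 h, where 15.5% of all tested genes rose and 12.8% fell. For all 6 that fell the arrays of the groups did not overlap, as was so for 15.3% of all genes in that direction. At 6 h 0 of 10 were called, where 0.327% of all tested genes were (83 genes). The only member with an unadjusted limma p under 0.05 at 6 h was E2f2. Whether the hyperoxia effect differed between the times was itself tested, as the 24 h effect less the 6 h effect. In this test 5 of the 10 were lower and 0 higher, where 5.63% of all genes were lower and 6.63% higher. These were E2f8 (-2.83 ± 0.18), E2f7 (-2.57 ± 0.17), Rbl1 (-1.15 ± 0.15), E2f2 (-0.93 ± 0.17) and E2f1 (-0.90 ± 0.13), with limma adjusted p between 5.52e-07 and 0.00241. By the second probes of E2f7 and Rbl1 the difference did not pass (limma adjusted p = 0.281 and 0.0515). For E2f4 it was -0.48 ± 0.16 and missed the threshold (limma adjusted p = 0.0641).

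**Figure D4:**
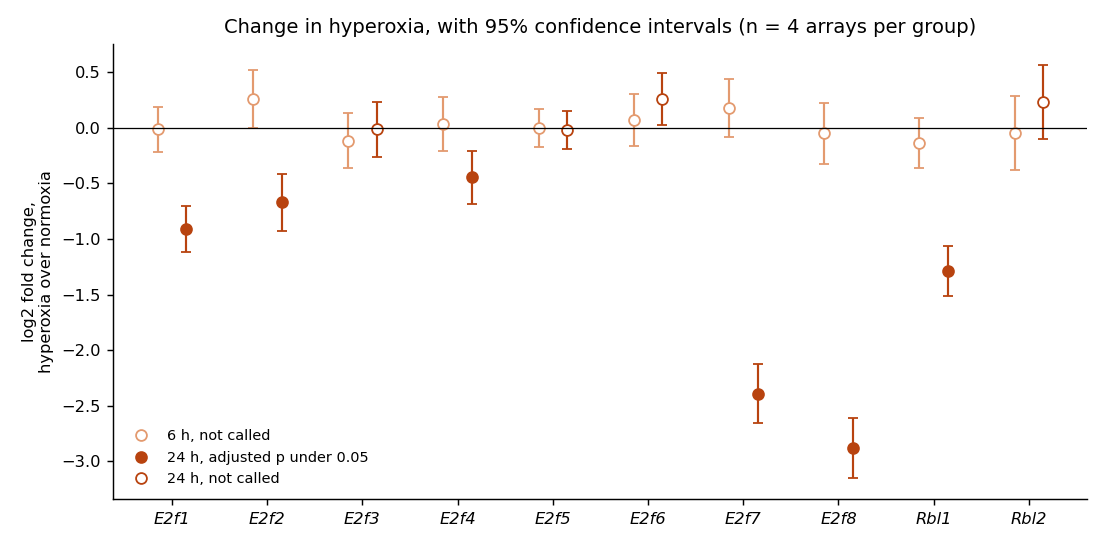
Log2 fold change of hyperoxia over normoxia at 6 h and 24 h for each of the 10 genes, by its brightest probe, with 95% confidence intervals; filled points have an adjusted p under 0.05. At 6 h all points lie between -0.14 and 0.26 and are open, and at 24 h the 6 filled points run from -0.45 for E2f4 to -2.88 for E2f8.

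Over time in normoxia, 4 of the 10 genes fell and 0 rose, where 23.5% of all genes fell and 20.6% rose. They were E2f2 (-0.76), Rbl1 (-0.73), E2f7 (-0.56) and E2f8 (-0.48), and the E2f8 call was lost when arrays were centred on their median (-0.27, limma adjusted p = 0.0965). The second E2f7 probe did not show the fall in normoxia (-0.05, limma adjusted p = 0.627). The E2f1 difference over time in normoxia was 0.01 (95% confidence interval -0.19 to 0.21). Over time in hyperoxia 6 fell and 0 rose, where 27.4% of all genes fell and 25% rose: E2f8 (-3.31), E2f7 (-3.13), Rbl1 (-1.88), E2f2 (-1.70), E2f1 (-0.89) and E2f4 (-0.42). The second E2f7 probe changed by -0.26 over time in hyperoxia (limma adjusted p = 0.0165 over all tested probes). The E2f4 arrays overlapped between the times and its call was lost with median centring (-0.20, limma adjusted p = 0.134). That centring shifts the median of all genes over time to 0.19 in normoxia and 0.20 in hyperoxia, from -0.02 in both. The 7 fibroblast and smooth muscle markers moved with time as well, 5 of 7 rising in normoxia and 5 of 7 in hyperoxia, from a summed level of 9.84 to 10.1 in normoxia at 6 h. The summed level of the 3 club and ciliated cell markers, with Scgb3a2 not above background, ranged from 4.52 to 5.54 in normoxia at 6 h and from -0.12 to 0.50 at 24 h. Of the type II cell markers 5 fell and 1 rose over time in normoxia, and 6 fell and 0 rose in hyperoxia. Of 4 type I cell markers 3 fell and 1 rose in each, with medians of -1.38 and -1.56. The part of these cells in the changes over time was not tested.

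The partners and regulators of the family were described by lists of known members. The DP proteins are needed by the typical E2F factors to bind DNA. Tfdp1 fell by 0.34 on the log2 scale (log2 fold change -0.34 ± 0.07, limma adjusted p = 0.0031), and Tfdp2 did not pass at 0.24 ± 0.10. Of 9 G1 cyclins and kinases, which release E2F factors from pocket proteins, 0 rose and 6 fell (66.7%) in hyperoxia at 24 h. Of all genes 15.5% rose and 12.8% fell, and the list median was -0.38 against 0.01 over all genes. The E-type cyclins, themselves E2F targets, were among the 6, with log2 fold changes of -2.01 ± 0.10 for Ccne1 and -3.07 ± 0.39 for Ccne2. The Ccne2 probe was well above background on 1 of 4 hyperoxia arrays at 24 h, where its level was -6.82 ± 1.12. With normexp background correction the Ccne2 change was -0.94 (limma adjusted p = 7.51e-06). Their kinase Cdk2 changed by -0.44 ± 0.07, and the D-cyclin kinase Cdk6 by -0.42 ± 0.15. The Cdk6 call was lost without any 1 of normoxia 24 h replicates 1 to 3 or hyperoxia 24 h replicates 1, 3 and 4 (limma adjusted p up to 0.125). It was also lost with no filter on dim probes or a replicate block over both times (limma adjusted p = 0.0663 and 0.0595). Leaving out normoxia 6 h replicate 3 or hyperoxia 6 h replicate 1, outside the comparison, lost it too (limma adjusted p = 0.0526 and 0.0508).

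The inhibitors of these kinases did not move together. Of 7 listed, 1 rose (14.3%) and 2 fell (28.6%) in hyperoxia at 24 h, against 15.5% and 12.8% of all genes. Cdkn1a, an inhibitor of several cyclin-dependent kinases and a known p53 target, rose 3.57-fold (log2 fold change 1.84 ± 0.14). It was also the only gene of all lists called at 6 h (1.11 ± 0.14, limma adjusted p = 0.00195), a call lost when only the 6 h arrays were fitted (limma adjusted p = 0.0588). The inhibitors of Cdk4 and Cdk6, Cdkn2c and Cdkn2d, fell, with log2 fold changes of -0.92 ± 0.11 and -0.80 ± 0.09. With the replicate number as a block within each time, 3 of the 7 rose, Cdkn1c (0.87, limma adjusted p = 0.000267) and Cdkn2a (0.47, limma adjusted p = 0.00428) joining Cdkn1a.

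Of 8 genes of the MuvB core and its partners, 4 fell (50%) and 0 rose in hyperoxia at 24 h, against 12.8% and 15.5% of all genes. The largest falls were in the partners that bind MuvB when cells divide, Mybl2 (-2.14 ± 0.11) and Foxm1 (-1.82 ± 0.10). The core subunits Lin9 (-0.92 ± 0.12) and Lin54 (-0.84 ± 0.11) fell as well, while Lin37, Lin52, Rbbp4 and the kinase gene Dyrk1a did not pass the test, with values of -0.12, 0.04, -0.08 and -0.03; these are named after their values were seen. Of 9 partners in E2F6 complexes, 1 fell (11.1%) and 2 rose (22.2%), against 12.8% and 15.5% of all genes, so the counts are near the background and are no result about the partners. The changes were small: the heterochromatin protein gene Cbx3 by -0.52 ± 0.07, the MAX partner Mga by 0.31 ± 0.06 and the Polycomb ligase Rnf2 by 0.29 ± 0.08. Of 8 genes of E2F protein turnover, 5 fell (62.5%) and 0 rose, against 12.8% and 15.5% of all genes. Fbxo5, an inhibitor of the anaphase-promoting complex, changed by -3.12 ± 0.13, its activator Cdc20 by -2.26 ± 0.12, and the F-box genes Ccnf and Skp2 by -1.35 ± 0.11 and -0.97 ± 0.07.

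Known E2F targets of DNA replication and the G1/S step fell almost throughout. Of 40 listed, 37 fell (92.5%) and 0 rose in hyperoxia at 24 h, against 12.8% and 15.5% of all genes. Their median was -1.29 against 0.01 over all genes. Ccna2, the cyclin of S phase, changed by -3.00 ± 0.14, the origin licensing factor Cdc6 by -2.49 ± 0.11, the replication initiator Mcm10 by -2.40 ± 0.12 and the maintenance methylation factor Uhrf1 by -2.25 ± 0.08. The 3 that did not pass were Chek1 (-0.50 ± 0.28), Ung (-0.35 ± 0.14) and Slbp (-0.18 ± 0.07), named after their values were seen. Ung passed under 6 alternatives (limma adjusted p from 0.0145 to 0.0496) and Slbp under 2. For Slbp these were the replicate number as a block within each time (limma adjusted p = 0.0385) and leaving out normoxia 6 h replicate 4 (limma adjusted p = 0.0483). That array lies outside the comparison, and the Slbp change stayed at -0.18 without it. Chek1 was -0.17 without normoxia 24 h replicate 2. At 6 h 0 of the 40 were called, against 0.327% of all genes, and the list median was -0.01. Over time in hyperoxia all 40 fell (37 with median centring), where 27.4% of all genes fell. In normoxia 25 fell (62.5%) and 0 rose, where 23.5% of all genes fell and 20.6% rose. With median centring 10 of the 40 fell and 1 rose in normoxia, so the normoxia count depended on the scaling. The genes were listed as targets from general knowledge, and binding or activity of an E2F factor was not measured here.

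The E2F1 targets of cell death that changed in hyperoxia at 24 h rose, while E2f1 itself fell. Of 8 listed, 4 rose (50%) and 0 fell in hyperoxia at 24 h, against 15.5% and 12.8% of all genes, with a median of 0.22. Pmaip1, a pro-apoptotic BH3-only protein, rose by 1.81 ± 0.26, Apaf1, the scaffold of the apoptosome, by 1.09 ± 0.08, and the BH3-only gene Bcl2l11 by 0.66 ± 0.09. Pmaip1 and Apaf1 are known as p53 targets too. Over time in normoxia 4 of the 8 fell (50%) and 0 rose, where 23.5% of all genes fell and 20.6% rose. With median centring 1 fell and 1 rose, so these counts depended on the scaling.

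**Figure D5:**
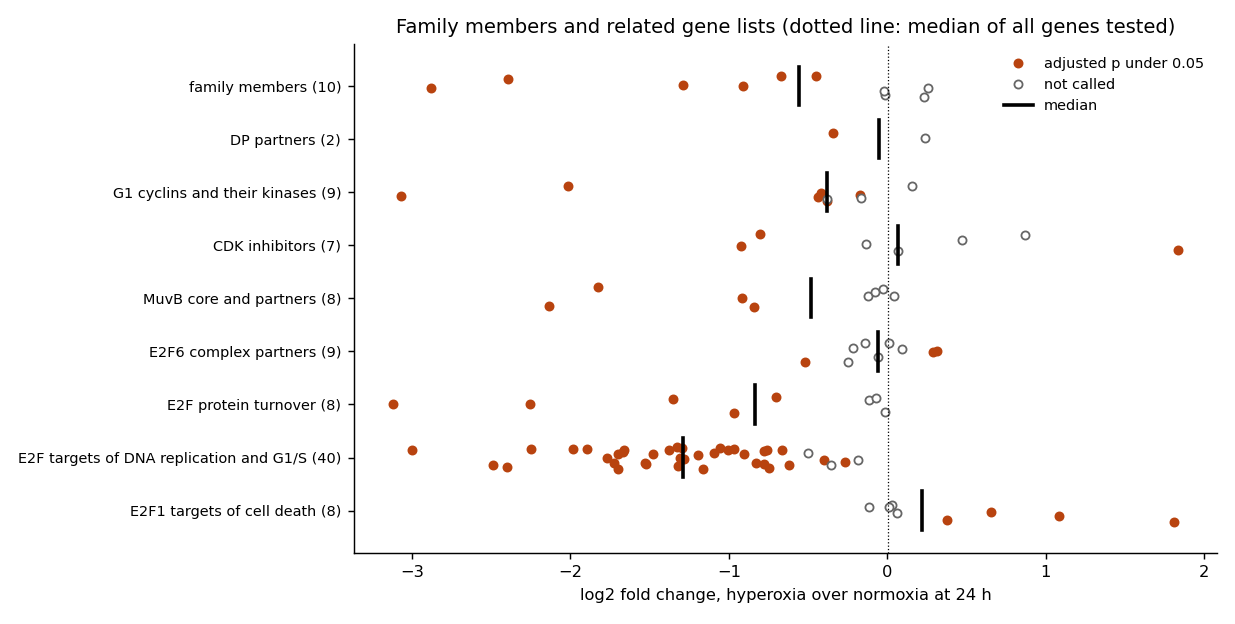
Log2 fold change of hyperoxia over normoxia at 24 h for each gene (points) of the family and of 8 lists of related genes, with the number of genes in brackets, the list median as a bar and the median of all genes as a dotted line; filled points have an adjusted p under 0.05. The replication and G1/S list lies wholly below 0 with a median of -1.29, and the filled points of the cell death list lie above 0, up to 1.81.

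For each member, the 3 genes most like it were taken by Pearson correlation of the log2 signal over the 16 arrays, among tested genes with a RefSeq symbol. These are descriptions without a test, since the points share arrays and the group shifts dominate. E2f8 was most like Cenpi, a kinetochore subunit, the exonuclease gene Exo1 and the target Mcm10 named above (r = 0.998 for each). E2f7 by its brightest probe was most like Cdc6 (r = 0.995), Cenpk and Gins2. Rbl1 was most like Mcm4, a subunit of the replicative helicase (r = 0.993), the turnover gene Ccnf and Ppil1. E2f1 was most like Cep128 (r = 0.983), Diaph3 and Ulbp1, and E2f2 like the recombination genes Xrcc3 (r = 0.972) and Xrcc2, and Rfwd3. After the group means were removed, these correlations were between 0.52, for E2f2 with Xrcc2, and 0.88, for E2f8 with Cenpi.

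The other members had lower correlations over the 16 arrays. E2f4 was most like the sterol synthesis gene Dhcr7 (r = 0.921), Cars2 and Insig1, and Rbl2 like Shoc2 (r = 0.920), Ctu1 and St8sia2. E2f3 was most like Fbxo7 (r = 0.897), Zbtb44 and Rps6kb1, E2f5 like Psme1 (r = 0.906), Slc25a43 and Slc12a7, and E2f6 like Kctd12 (r = 0.868), Med26 and Zmpste24. With group means removed, the correlations of this set were between 0.77, for E2f4 with Insig1, and 0.93, for E2f3 with Zbtb44. By that measure they were not lower than those of the first set. Among the members, E2f7 and E2f8 were the closest pair (r = 0.992, and 0.80 after the group means were removed). E2f1 and E2f8 correlated at 0.954 over the 16 arrays but at 0.35 once group means were removed. E2f6 and E2f8 correlated at -0.27 over all arrays and at 0.90 once group means were removed, so arrays of a group with more E2f6 signal also had more E2f8 signal.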

How the data were processed

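RNA of 16 samples was hybridised, as Cy3-labelled cRNA, to one-colour Agilent arrays. Per the file headers, the deposited array files came from Agilent Feature Extraction 10.7.3.1 and hold for each spot an intensity, the processed signal, from which the authors' software had subtracted the background and a spatial trend; arrays were not scaled to each other. The table of series values that the authors deposited holds log2 values of 43964 probes. How it was normalized is not given in the sources used here, and it served as an alternative only. All its arrays have the same median (7.19), and its results were close to those of quantile normalization. For Cdkn1a over time in normoxia, both gave 0.33. These alternatives are therefore not independent.

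Here, outlier spots were left out, spots of a probe averaged, and log2 signals set relative to the 75th percentile of each array. The brightest probe over 16 arrays stood for its gene, which was tested where 3 or more of the 4 arrays in any group marked that probe as well above background. The comparisons used limma 3.58.1 (R 4.3.3) with 1 mean per group over all 16 arrays, two-sided tests and Benjamini-Hochberg adjustment over 25401 genes at a threshold of 0.05. The code was tested on simulated data. The number of arrays limits the precision. Promoter windows came from RefSeq tables of GRCm38.p6, and probe positions are those of mm9 in the array files. mm9 annotation was not used here.

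Same-numbered normoxia and hyperoxia arrays share a slide column. Their residuals correlated at 0.246, 0.345, 0.244 and 0.261 at 24 h, which pairs them, and at 0.252, 0.253, 0.355 and 0.086 at 6 h, which does not pair them all. The members and lists were chosen with earlier results of these data known. The text names every member, up to 4 called genes of a list per hyperoxia comparison with the largest change and the 3 most correlated genes, and says where a gene was named after its value was seen. Alternatives were other normalizations, background correction, filters, array weights, a variance trend, replicate blocks, other probes, only the arrays compared, and each array left out. The result of 1 listed gene is not reported here.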

Additional observations from a re-analysis of the deposited data

Results flagged for a closer look

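No array stood apart from the other 3 of its group in any of the 40 groups of values checked for the 10 members. The results given here differ between the times: the effect of hyperoxia at 24 h less that at 6 h, on the log2 scale, passed the limma test with an adjusted p under 0.05. Time and slide cannot be told apart in it.

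Among the members it was -2.83 for E2f8, -2.57 for E2f7, -1.15 for Rbl1, -0.93 for E2f2 and -0.90 for E2f1. Among partners and regulators it was -0.37 for Tfdp1, -1.97 for Ccne1, 0.72 for Cdkn1a, -0.68 for Cdkn2c, -2.30 for Mybl2, -1.69 for Foxm1, -0.54 for Cbx3, 0.50 for Mga, -2.84 for Fbxo5 and -1.85 for Cdc20. For Ccne2 it was -3.30, and -1.06 with normexp background correction, its probe being well above background on 1 of 4 hyperoxia arrays at 24 h. Among target genes it was -2.75 for Ccna2, -2.47 for Cdc6, 1.32 for Pmaip1 and 0.81 for Apaf1. The calls of Tfdp1, Cdkn1a and Pmaip1 were each lost when some single arrays were left out, with limma adjusted p up to 0.0677, 0.0571 and 0.0558. That of Tfdp1 was also lost with median centring, array weights or no filter on dim probes (limma adjusted p up to 0.0772). That of Cdkn1a was also lost with quantile normalization or the deposited series values (limma adjusted p up to 0.0661).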

How the results depend on the processing

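Over 30 alternatives the 50 member values (10 genes in 5 comparisons) gave 1335 values, of which 1313 kept their side of the threshold, 16 passed newly and 6 no longer passed. No called member value changed sign, while 50 uncalled ones did. Of 279 totals (members called, and genes called over all lists together), 278 stayed within 1.5 times, while 94 of 2112 counts for single lists moved by more. The exception among the totals was the count of listed genes called at 6 h, which was 0 with only the arrays of the comparison and 1 (Cdkn1a) otherwise. The number of members called at 24 h ran from 5, with the other E2f7 probe, to 7, with normexp background correction or the other E2f3 probe, and at 6 h it was 0 throughout. With the replicate number as a block within time, 24 h changes kept their sizes and no member call changed (E2f4 -0.45, limma adjusted p = 0.021).

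Over time, E2f6 and Rbl2 rose in hyperoxia with median centring (0.29 and 0.53), and Rbl2 with normexp (0.35). E2f5 fell in normoxia and E2f3 rose in hyperoxia with array weights (-0.18 and 0.20). E2f3 rose in hyperoxia without hyperoxia 6 h replicate 3 (0.22), Rbl2 without replicate 2 (0.46), and E2f5 fell without replicate 1 (-0.22). The E2f4 difference between the times passed with normexp, a filter on all 16 arrays, array weights, or without hyperoxia 24 h replicate 2 or hyperoxia 6 h replicate 1 or 3 (-0.59 to -0.48). The listed kinase Cdk3 changed by -1.40 over time in hyperoxia but was 0.13 with normexp, its probe being well above background on 0 of 4 hyperoxia arrays at 24 h and 2 of 4 at 6 h; the cause was not tested.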
